A study of Mus musculus with 12 samples.

Results

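The Toll-like receptors Tlr1, Tlr2, Tlr3, Tlr4, Tlr6, Tlr7, Tlr8, Tlr9 and Tlr13 and the co-receptor Cd14 were followed in mouse marrow-derived dendritic cells, in cells with the H3K27 methyltransferase Ezh2 and in cells lacking it, at rest and matured with LPS. They were chosen by gene symbol: 15 of the 45281 probes on the array carried one of these 10 symbols. Of the 10 genes, 9 were among the 10908 genes that passed the filter on dim probes, which asked for detection (p under 0.05) by 3 or more arrays of 12. Tlr3 did not pass it.

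Marrow cells of C57/B6 mice had both copies of Ezh2 flanked by loxP sites (Ezh2f/f), and those labelled EZH2 KO also carried Mx-cre. The wild type cells here are thus floxed cells without Cre. Mx-cre is driven by an interferon-responsive promoter and is not restricted to dendritic cells, and the labels do not say when it was induced. Cultures ran for 6 or 7 days, at first with GM-CSF (20 ng/ml) and IL-4 (10 ng/ml) and, once washed on day 2, with GM-CSF alone (10 ng/ml). Immature cells were untreated, and mature cells received LPS (100 ng/ml) overnight. In some experiments, which the labels do not name, mature cells also spent 6 h in medium without serum. The 2 genotypes and 2 stages make 4 groups of 3 arrays each, and arrays with the same replicate number are called a set. Nothing says that the replicates came from separate animals or cultures, so the p-values reflect array-to-array spread alone, which may be technical.

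Toll-like receptors recognise microbial molecules and signal through adaptors such as MyD88 and TRIF to NF-kB and interferon regulatory factors. Tlr1, Tlr2, Tlr4 and Tlr6 act at the cell surface, where Tlr4 with its partner MD-2 binds LPS that CD14 hands over, and Tlr2 pairs with Tlr1 or Tlr6 to bind bacterial lipopeptides. Tlr3, Tlr7, Tlr8, Tlr9 and Tlr13 sit in endosomes and recognise nucleic acids. In dendritic cells these receptors start maturation, the switch from antigen uptake to T cell priming.

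Sets 1 and 2 (8 arrays) carry the results, and set 3 is shown apart because its labels went against its expression. In the wild type pair of set 3, Il6, an LPS-induced cytokine, read 11.99 (log2) where the label says immature and 4.93, not detected, where it says mature. Sets 1 and 2 gave 6.02 to 6.45 and 11.82 to 12.32. Cdkn2a, a known Polycomb target, was not detected by its brightest probe in wild type cells of those sets, and was detected on both set 3 arrays labelled wild type but on neither labelled Ezh2-deficient. Of 3 probes for Ezh2, the brightest lay between 9.39 and 11.18 on the 8 arrays without separating the genotypes. A dimmer one read 6.58 and 6.03 in wild type immature cells and was not detected in Ezh2-deficient immature cells, but in mature cells it was detected in both genotypes, at 6.90 and 7.03 in wild type and 6.10 and 6.61 in Ezh2-deficient cells. The third was not detected on any array, and the files do not say which of them lie in the deleted stretch, so they do not check the deletion. Each array detected 17892 to 19611 probes. Of 7 dendritic cell markers 6 were detected on the 8 arrays, among them Itgax and the MHC class II genes, and Flt3 was not. Leaving out set 3 was decided with earlier results of these data known, and the p-values do not account for that choice.

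RefSeq promoter sequences (build GRCm38.p6, 250 bases before to 50 after a start site) were used for 7 of the 10 genes. Tlr4, Tlr7 and Cd14 were not among them. Of the 7, those that rose (Tlr1, Tlr6) or fell (Tlr8) are given 5′ to 3′ on the gene's strand. Tlr2 is given in the same way for its matches to the NF-kB motif. Cd14 also rose, but its promoter was not examined. Capitals mark matches on either strand to 5 motifs: the NF-kB consensus, the interferon response (ISRE) core, the PU.1 core GAGGAAGT, the AP-1 motif TGANTCA and the C/EBP motif TTGCNNAA.
Tlr1, chr5:64933509-64933808, minus strand: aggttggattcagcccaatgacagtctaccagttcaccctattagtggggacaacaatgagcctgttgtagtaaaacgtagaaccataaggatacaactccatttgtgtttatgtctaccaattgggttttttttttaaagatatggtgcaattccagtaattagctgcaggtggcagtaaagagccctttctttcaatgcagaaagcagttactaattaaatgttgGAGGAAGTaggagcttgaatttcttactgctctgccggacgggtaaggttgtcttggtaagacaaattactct
Tlr2, chr3:83841559-83841858, minus strand: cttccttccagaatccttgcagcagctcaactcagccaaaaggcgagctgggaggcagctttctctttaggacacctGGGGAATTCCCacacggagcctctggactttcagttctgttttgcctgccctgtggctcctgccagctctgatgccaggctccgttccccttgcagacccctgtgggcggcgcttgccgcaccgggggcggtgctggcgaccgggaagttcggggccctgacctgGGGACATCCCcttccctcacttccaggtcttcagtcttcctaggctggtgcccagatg
Tlr6, chr5:64959117-64959416, minus strand: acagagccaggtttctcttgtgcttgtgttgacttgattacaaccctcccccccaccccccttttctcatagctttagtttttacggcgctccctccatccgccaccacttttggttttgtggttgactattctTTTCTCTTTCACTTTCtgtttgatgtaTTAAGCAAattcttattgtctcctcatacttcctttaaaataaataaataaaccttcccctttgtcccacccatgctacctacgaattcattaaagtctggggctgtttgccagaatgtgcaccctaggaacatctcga
Tlr8, chrX:167264280-167264579, minus strand: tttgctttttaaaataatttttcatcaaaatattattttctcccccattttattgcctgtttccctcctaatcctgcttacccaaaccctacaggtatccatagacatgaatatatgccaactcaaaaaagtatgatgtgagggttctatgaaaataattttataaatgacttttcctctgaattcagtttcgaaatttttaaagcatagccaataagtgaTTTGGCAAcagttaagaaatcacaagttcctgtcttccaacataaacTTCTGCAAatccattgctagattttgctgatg
The Tlr1 window holds 1 PU.1 core, the Tlr6 window 2 overlapping interferon response cores and 1 C/EBP motif, and the Tlr8 window 2 C/EBP motifs. The Tlr2 window holds NF-kB matches at 2 places, the first of them 2 overlapping matches. Of the windows not shown, that of Tlr3 holds an NF-kB and a C/EBP match, that of Tlr9 a PU.1 and an AP-1 match and that of Tlr13 a C/EBP match. Where a gene had more than 1 start site listed, the window with the most matches was shown. The other start site listed for Tlr1 and the other for Tlr6 hold no match. Of all 32851 promoter windows of this length, 8.46% hold the NF-kB consensus, 3.44% the interferon response core and 3.2% the PU.1 core. The AP-1 motif is in 7.81% and the C/EBP motif in 10.8%. Those windows were not chosen by their matches, so the shares are not a like background for the Tlr1, Tlr2 and Tlr6 windows shown. A match describes the letters in a window and does not show that a factor binds there.

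The first comparison asks how LPS changed the receptors. In wild type cells of sets 1 and 2, 3 of the 9 genes tested rose (Tlr1, Cd14, Tlr6), 1 fell (Tlr8) and 5 did not pass the test. Those 4 also passed in the same directions in Ezh2-deficient cells. A gene was called at a limma p, adjusted by Benjamini-Hochberg over all 10908 genes, under 0.05. By that rule 30.3% of all genes were called in wild type cells (12.6% higher, 17.7% lower) and 36% in Ezh2-deficient cells (15.2% higher, 20.8% lower). Of the called genes, 41.6% and 42.3% were thus higher, and 52.1% and 53.7% with 75th percentile scaling. With 9 genes, 4 calls are not far from that background, and the count is not a result about the family. The members' median change was 0.09 in wild type and -0.32 in Ezh2-deficient cells, against -0.03 over all genes in both. The groups of 2 arrays did not overlap for 6 of the 9 genes in each genotype, and for 67.3% and 69.2% of all genes.

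Tlr1, the partner of Tlr2 for triacylated lipopeptides, had the largest change of the 9. Its log2 level was 6.00 and 6.25 on the wild type immature arrays 1 and 2 and 9.83 and 8.97 on the wild type mature ones. In Ezh2-deficient cells it was 5.63 and 5.01 before LPS, the second not detected, and 9.49 and 8.68 after. Every mature array lay above every immature one. The rise was 9.68-fold in wild type (log2 3.27, SE 0.39, limma adjusted p = 0.000889) and 13.6-fold in Ezh2-deficient cells (log2 3.76, SE 0.39, adjusted p = 0.000392). With the deposited log2 values, which have no background correction, the rises were smaller, at 2.27 and 2.31 (adjusted p = 0.00135 and 0.000979).

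Cd14 encodes the LPS-binding co-receptor that also takes Tlr4 into endosomes. It read 12.53 and 11.22 (log2) on the wild type immature arrays and 14.06 and 14.07 on the mature ones. On the Ezh2-deficient arrays it read 12.11 and 11.62 before and 14.29 and 13.89 after LPS. The 2 stages did not overlap in either genotype. Cd14 rose 4.58-fold in wild type (log2 2.19, SE 0.39, limma adjusted p = 0.0047) and 4.67-fold in Ezh2-deficient cells (log2 2.22, SE 0.39, adjusted p = 0.00357).

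Tlr6, which pairs with Tlr2 for diacylated lipopeptides, was at 8.66 and 8.53 (log2) in wild type immature and at 10.19 and 9.58 in wild type mature cells. The Ezh2-deficient arrays read 8.46 and 8.20 before and 10.00 and 9.17 after LPS. All 4 mature arrays were above all 4 immature ones. The rise was 2.45-fold in wild type (log2 1.29, SE 0.31, limma adjusted p = 0.0159) and 2.39-fold in Ezh2-deficient cells (log2 1.26, SE 0.31, adjusted p = 0.015). A second, dimmer Tlr6 probe changed by 0.92 (adjusted p over 17632 probes = 0.131) and 0.76 (adjusted p = 0.192) and did not pass. The wild type call was lost when either wild type immature array or the first mature one was left out (changes of 1.36, 1.23 and 0.98, limma adjusted p = 0.0642, 0.0894 and 0.0863). In Ezh2-deficient cells it was lost without the corresponding Ezh2-deficient arrays (changes of 1.39, 1.13 and 0.85, adjusted p = 0.0506, 0.0902 and 0.0683). Tlr1 and Tlr6 neighbour each other on chromosome 5 and are close paralogs. The probe sequences were not used here, so whether a probe reads both genes is not known.

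Tlr8, an endosomal receptor that in humans senses single-stranded RNA, was the receptor that fell. Its level was 7.82 and 5.96 (log2) in wild type immature cells and 5.36 and 4.78 in wild type mature cells, the last not detected. The Ezh2-deficient arrays read 7.77 and 6.80 before LPS and 5.41 and 5.21 after, the last again not detected. Immature arrays were higher than mature ones in both genotypes, but the wild type immature pair differed by 1.86. Tlr8 fell by 1.82 in wild type (SE 0.58, limma adjusted p = 0.0481) and by 1.97 in Ezh2-deficient cells (SE 0.58, adjusted p = 0.0316). With the deposited log2 values the changes were -0.86 and -0.95, neither past the test (adjusted p = 0.0862 and 0.0557).

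The Tlr8 calls depended on single arrays. In wild type cells the change became -0.89 when the first immature array was left out (limma adjusted p = 0.227). It became -2.11 without the first mature array (adjusted p = 0.0775) and -1.53 without the second (adjusted p = 0.165). It was -2.75 and still called when the second immature array was left out (adjusted p = 0.0129), and it missed the threshold without any of the 4 Ezh2-deficient arrays (adjusted p = 0.054 to 0.0577). In Ezh2-deficient cells the call was lost without Ezh2-deficient immature 1 (-1.49, adjusted p = 0.177), mature 1 (-2.07, adjusted p = 0.0713) or mature 2 (-1.87, adjusted p = 0.098). Tlr7, the neighbour of Tlr8 on the X chromosome and likewise a sensor of single-stranded RNA, did not pass. It read 9.35 and 8.39 in wild type immature, 9.30 and 8.62 in wild type mature, 9.26 and 8.74 in Ezh2-deficient immature and 9.14 and 8.17 in Ezh2-deficient mature cells. Its changes with LPS were 0.09 (95% interval -0.91 to 1.09) and -0.34 (-1.34 to 0.66). The difference between the 2 neighbours was not tested.

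**Figure D1:**
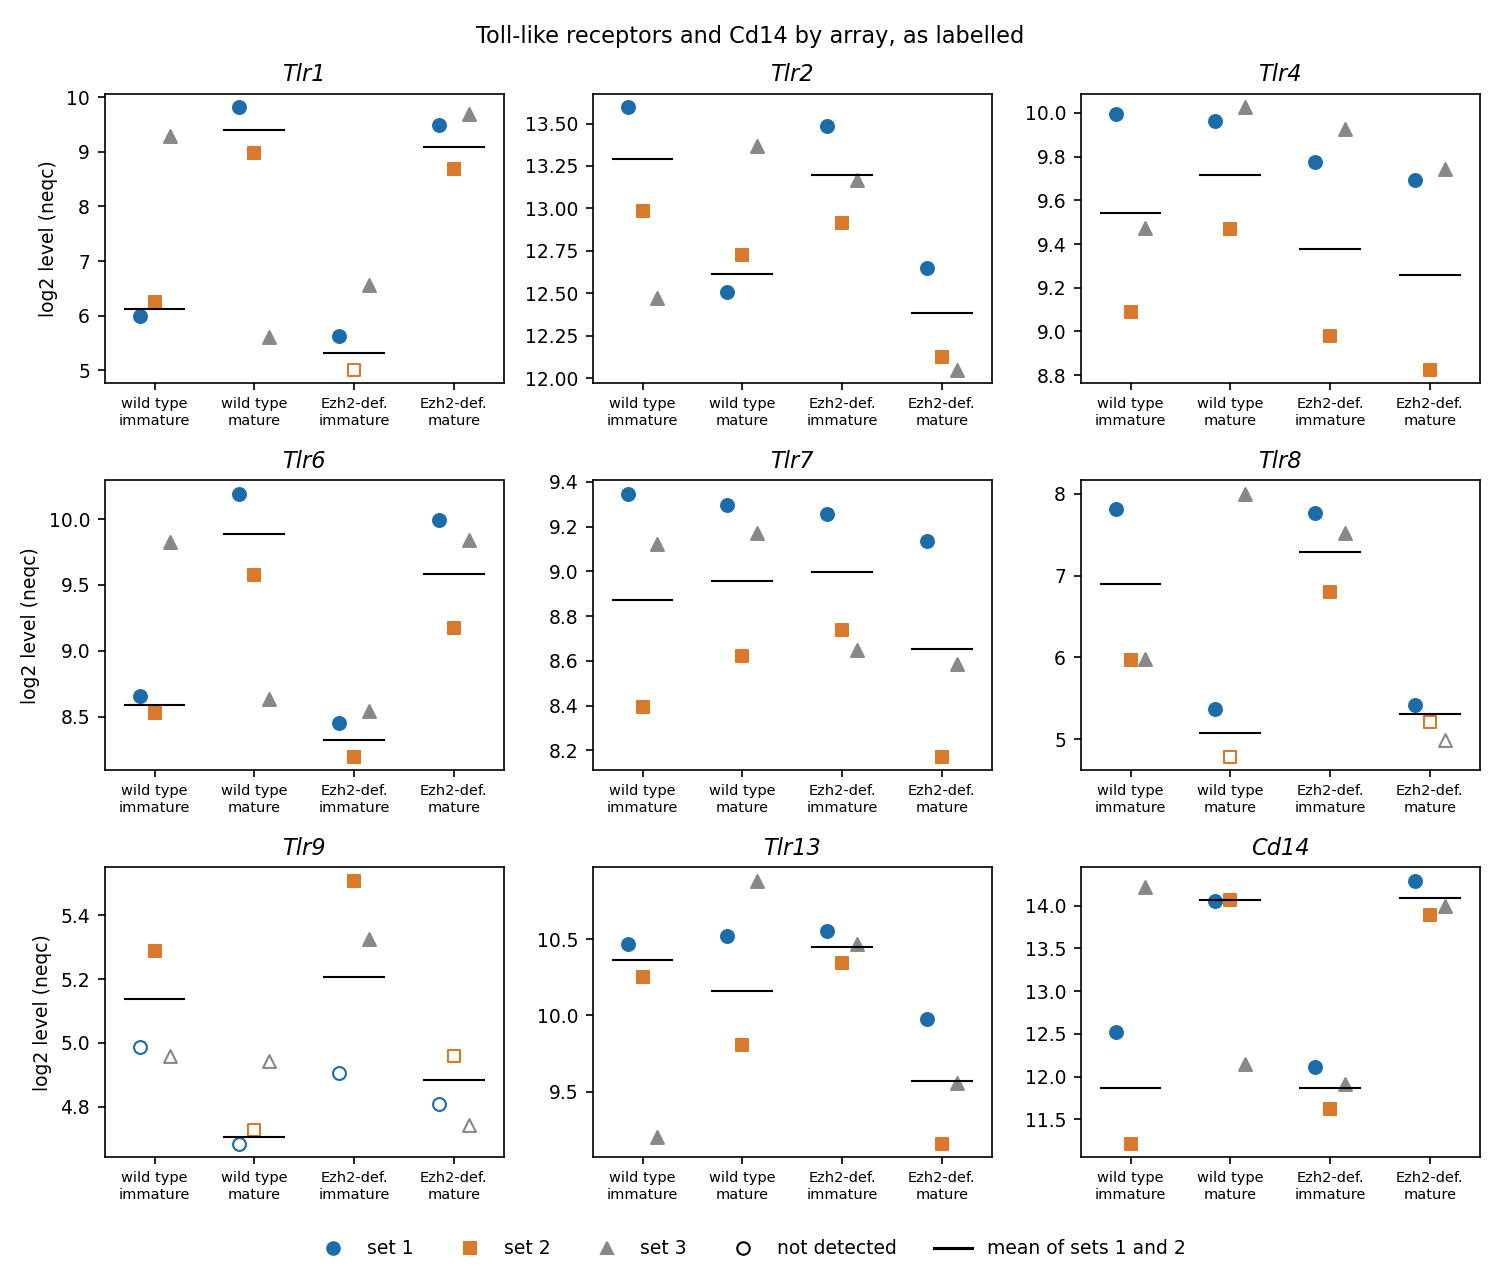
Log2 level (neqc-normalized, y axis, with its own range per gene) of the 9 genes tested on each of the 12 arrays, by labelled group; open symbols were not detected and lines are the means of sets 1 and 2. Tlr1, Tlr6 and Cd14 lie higher and Tlr8 lower on the mature arrays of sets 1 and 2, while the grey triangles of set 3 labelled wild type lie on the opposite sides.

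Tlr2, the shared partner of Tlr1 and Tlr6, did not pass the test. It read 13.60 and 12.99 (log2) in wild type immature and 12.51 and 12.73 in wild type mature cells, then 13.48 and 12.91 in Ezh2-deficient immature and 12.65 and 12.12 in Ezh2-deficient mature cells. The stages did not overlap in either genotype. The change was -0.68 (SE 0.29, limma adjusted p = 0.114) in wild type and -0.81 (SE 0.29, adjusted p = 0.0591) in Ezh2-deficient cells. The second value passed only without Ezh2-deficient mature 1 (-1.07, adjusted p = 0.0423) among the fits that leave out 1 array, and was -0.53 without Ezh2-deficient immature 1 (adjusted p = 0.307) and -0.55 without Ezh2-deficient mature 2 (adjusted p = 0.247).

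Tlr4, the LPS receptor itself, was read by 3 probes that did not move alike. The brightest by its mean over all 12 arrays, set 3 included, gave 10.00 and 9.09 (log2) in wild type immature and 9.96 and 9.47 in wild type mature cells. In Ezh2-deficient cells it gave 9.78 and 8.98 before and 9.70 and 8.83 after LPS. All 4 groups overlapped. Its changes with LPS were 0.17 (95% interval -0.80 to 1.14) in wild type and -0.12 (-1.09 to 0.85) in Ezh2-deficient cells. A second probe, ILMN_2752966, had the higher mean over the 8 arrays of sets 1 and 2. It read 10.09 and 9.64 in wild type immature and 9.48 and 9.28 in wild type mature cells. In Ezh2-deficient cells it read 9.87 and 9.53 before and 9.32 and 8.84 after LPS. Its stages did not overlap in either genotype. This probe changed by -0.48 (limma adjusted p over probes = 0.17) and -0.62 (adjusted p = 0.078), neither past the test. With the mean of the probes in place of the brightest, the wild type change of Tlr4 was -0.19, so it has no settled direction. The third probe was detected on 2 of the 8 arrays.

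Tlr13, a mouse receptor for bacterial ribosomal RNA, was at 10.47 and 10.25 (log2) in wild type immature and 10.52 and 9.80 in wild type mature cells, which overlap. In Ezh2-deficient cells it was at 10.55 and 10.34 before and 9.98 and 9.16 after LPS, which do not. The changes were -0.20 (SE 0.32, limma adjusted p = 0.668) and -0.88 (SE 0.32, adjusted p = 0.0617). The second value passed without Ezh2-deficient mature 1 (-1.29, adjusted p = 0.0181), wild type mature 1 (adjusted p = 0.0397) or wild type mature 2 (adjusted p = 0.0394). Leaving out Ezh2-deficient mature 2 gave -0.47 (adjusted p = 0.29), and leaving out the first immature array of that genotype gave -0.77 (adjusted p = 0.229). Its second probe changed by -0.24 and -0.49 in the same order.

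The DNA sensor Tlr9 and the double-stranded RNA sensor Tlr3 were at the limit of detection. The brighter Tlr9 probe was detected on 2 of the 8 arrays, wild type immature 2 (5.29, log2) and Ezh2-deficient immature 2 (5.51), and read 4.68 to 4.99 on the other 6. It passed the filter of 3 arrays only with the set 3 array labelled Ezh2-deficient immature 3 (5.33). The second Tlr9 probe and the single Tlr3 probe were not detected on any of the 12 arrays. Tlr3 read 4.43 to 4.99, so no level or change can be given for it at this brightness.

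**Figure D2:**
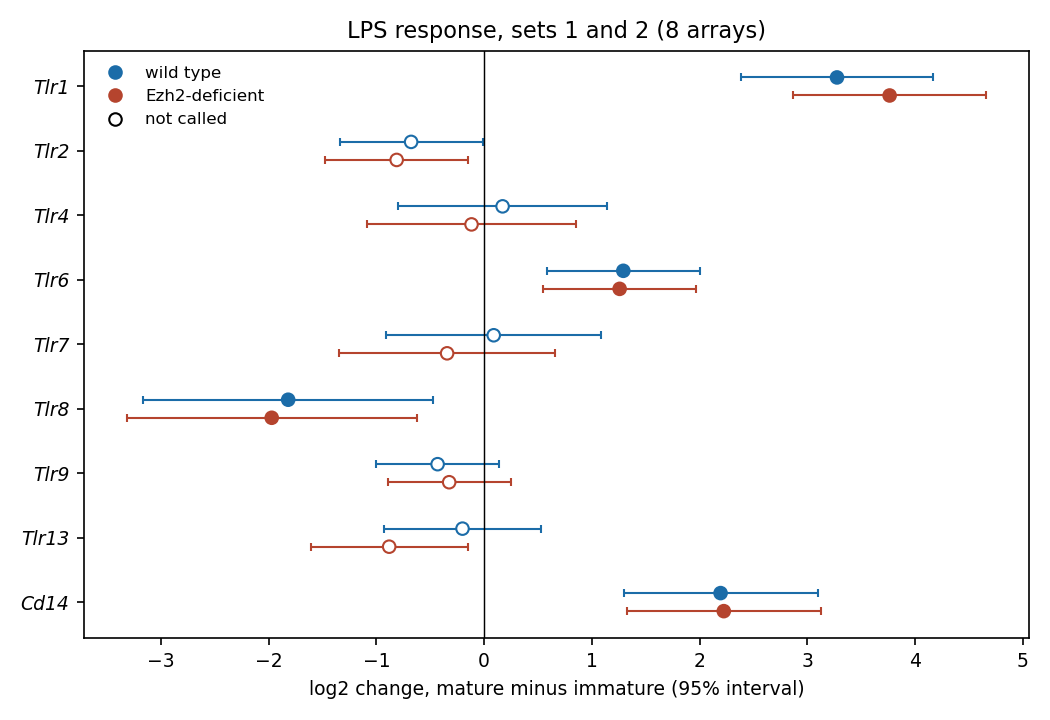
Change with LPS (x axis, log2, mature minus immature) of the 9 genes in wild type and Ezh2-deficient cells of sets 1 and 2, with 95% intervals from limma; filled points were called at an adjusted p under 0.05. Tlr1, Cd14 and Tlr6 lie above 0 and Tlr8 below it in both genotypes, and the intervals of the genotypes overlap for every gene.

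The genotype comparisons ask whether cells without Ezh2 differ in these receptors. None of the 9 genes was called by limma in immature cells, in mature cells or over both stages, and none had an unadjusted p under 0.05. Of all genes, 0.0275% were called in immature cells, 0.0183% in mature cells and 0.055% over both stages. The difference between the LPS responses of the genotypes also gave no member called, none at an unadjusted p under 0.05, and 0% of all genes called (169 of 10908 had an unadjusted p under 0.05).

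In immature cells Tlr1 had the largest difference, -0.80 (Ezh2-deficient minus wild type, 95% interval -1.70 to 0.09, limma unadjusted p = 0.0725). With the deposited log2 values, which have no background correction, it was smaller, at -0.31. Both Ezh2-deficient arrays were below both wild type arrays, and 1 of them was not detected. In mature cells the difference was -0.31 (-1.21 to 0.58) with overlapping groups, and over both stages -0.56 (-1.19 to 0.07, unadjusted p = 0.0764). Tlr6 differed by -0.27 (-0.98 to 0.45) in immature cells, where the groups did not overlap either, and by -0.30 (-1.01 to 0.41) in mature cells. Groups of 2 arrays did not overlap for 31% of all genes in immature and 27.9% in mature cells, where of the 9 genes this held for 2 and 1, the last being the undetected Tlr9.

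Cd14 differed by -0.00 (95% interval -0.90 to 0.90) in immature and 0.03 (-0.87 to 0.93) in mature cells. These intervals leave room for a change of up to 0.9 in either direction. Tlr13 differed by -0.59 (-1.32 to 0.13, limma unadjusted p = 0.0967) in mature and 0.09 (-0.64 to 0.82) in immature cells, with overlapping groups in both. For Tlr8 the differences were 0.39 (-0.95 to 1.74) and 0.24 (-1.11 to 1.58), for Tlr4 -0.17 (-1.14 to 0.81) and -0.45 (-1.43 to 0.52), and for Tlr2 -0.09 (-0.76 to 0.57) and -0.23 (-0.89 to 0.43), immature first. Tlr7 gave 0.13 (-0.87 to 1.13) and -0.31 (-1.30 to 0.69). Tlr9 was not detected on any of the 4 mature arrays, and no difference is given for it.

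The LPS responses of the genotypes differed by 0.49 for Tlr1 (Ezh2-deficient minus wild type, 95% interval -0.78 to 1.75), -0.03 for Tlr6 (-1.04 to 0.97), -0.15 for Tlr8 (-2.06 to 1.75) and 0.03 for Cd14 (-1.24 to 1.30). Tlr13 had the largest difference, -0.68 (-1.71 to 0.35, limma unadjusted p = 0.166). Intervals this wide do not show that the genotypes respond alike.

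**Figure D3:**
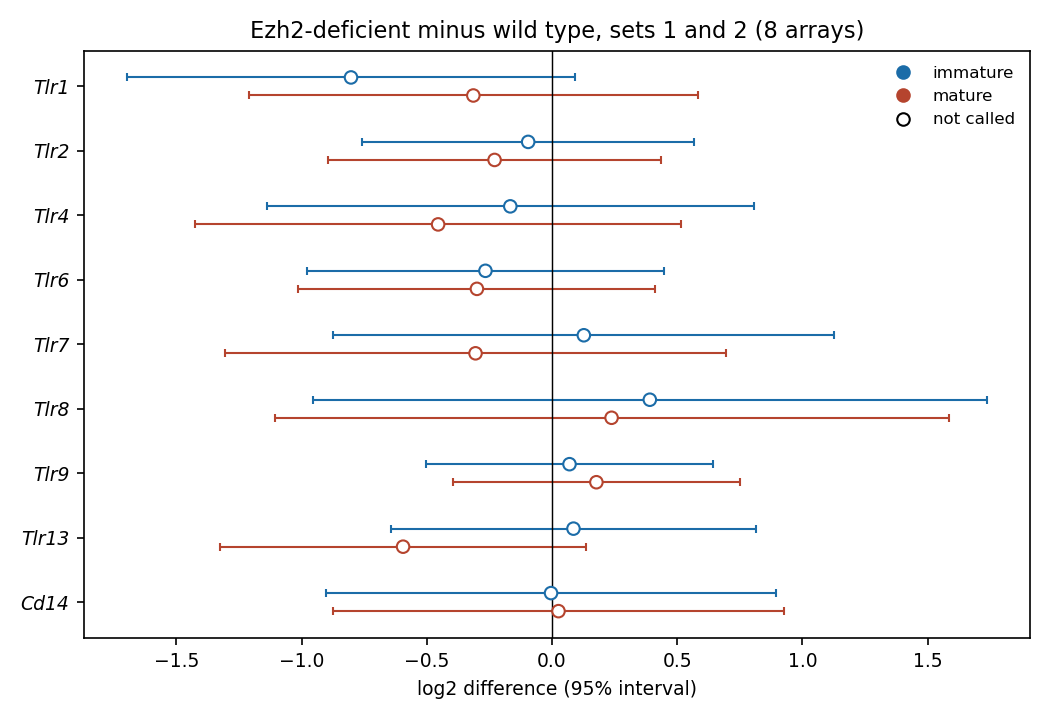
Ezh2-deficient minus wild type (x axis, log2) for the 9 genes in immature and in mature cells of sets 1 and 2, with 95% intervals from limma. Every interval includes 0 and no gene was called; Tlr9 was not detected on the mature arrays.

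Set 3 gave these values as labelled. On the array labelled wild type immature 3, Tlr1 read 9.29, Tlr6 9.82 and Cd14 14.22 (log2), and on the one labelled wild type mature 3 they read 5.60, 8.63 and 12.15. Tlr8 read 5.98 and 8.002 on the same 2 arrays. The labelled LPS difference was thus -3.69 for Tlr1, -1.19 for Tlr6, -2.07 for Cd14 and 2.02 for Tlr8, each opposite in sign to sets 1 and 2. The pair labelled Ezh2-deficient 3 gave 3.12 for Tlr1, 1.30 for Tlr6, 2.08 for Cd14 and -2.53 for Tlr8, the signs of sets 1 and 2. For Tlr13 the labelled wild type difference was 1.68, against 0.05 and -0.45 in sets 1 and 2, and for Tlr2 it was 0.90, against -1.09 and -0.26. No array was given another label. With all 12 arrays as labelled, limma called none of the 9 genes in either genotype (0 of 9 in wild type and 7 of 9 in Ezh2-deficient cells had an unadjusted p under 0.05, against 90 and 4596 of all 10908 genes), and the Tlr1 changes were 0.95 (adjusted p = 1) and 3.55 (adjusted p = 0.0668).

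**Figure D4:**
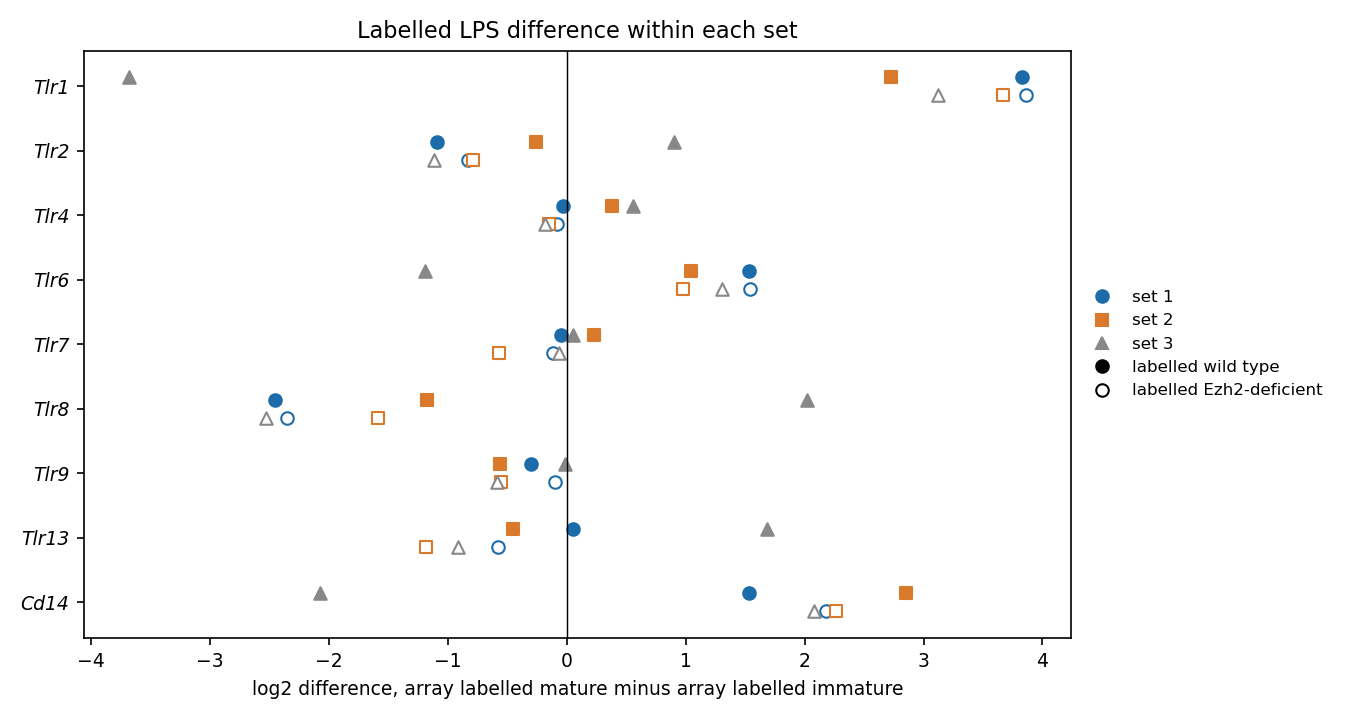
Difference between the array labelled mature and the array labelled immature (x axis, log2) within each set for the 9 genes; filled symbols are labelled wild type and open symbols Ezh2-deficient. For Tlr1, Tlr6, Tlr8 and Cd14 the filled triangle of set 3 lies on the other side of 0 from the other 5 symbols.

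For each of the 4 called genes, the 3 genes with the most similar pattern over the 8 arrays were taken by the root mean square difference of centred log2 values. Nearest to Tlr1 were Slfn1 (0.18), Oas3 (0.27), an interferon-induced sensor of double-stranded RNA, and Dusp2 (0.28), a phosphatase of MAP kinases. Nearest to Cd14 were Ccrl2 (0.16), a chemerin-binding receptor, Tnfaip3 (0.21), which encodes the NF-kB inhibitor A20, and Enpp4 (0.23). Tlr6 had Gng12 (0.10), Gnb5 and Esd (0.11 each), of which the first 2 encode G protein subunits. Tlr8 had more distant neighbours: Ctdspl (0.32), Clec9a (0.34), a lectin receptor of cross-presenting dendritic cells, and the chemokine Ccl6 (0.34).

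Markers of other cells moved with LPS as well. Of 8 macrophage markers 5 fell in each genotype, among them the mannose receptor Mrc1 (-4.25 in wild type and -5.43 in Ezh2-deficient cells, log2). The changes of 3 in wild type and 2 in Ezh2-deficient cells were positive and not called, those of Fcgr1 and Mertk in both. The summed level of the 8 markers went from 19594 to 24662 on immature to 7335 to 14398 on mature arrays. Ccr2, a monocyte chemokine receptor, fell at least 14-fold in wild type and at least 15.3-fold in Ezh2-deficient cells. Of the type 1 dendritic cell markers, Itgae fell in both genotypes. Clec9a fell in Ezh2-deficient cells (-1.94, limma adjusted p = 0.0478) and was at least 2.30-fold lower in wild type without passing the test (adjusted p = 0.0843). Cadm1 fell at least 1.83-fold in Ezh2-deficient cells (adjusted p = 0.00609) and did not pass in wild type (-0.47, adjusted p = 0.263). Batf3 and Irf8 rose in both, and Xcr1 was not detected on the 8 arrays. Itgax, the dendritic cell integrin, fell in both (-1.10 and -1.47, adjusted p = 0.00571 and 0.00125), as did Mgl2, a lectin of monocyte-derived and type 2 dendritic cells (-4.38 and -5.22, adjusted p = 9.9e-05 and 3.58e-05). Of the 4 markers of those cells, 1 fell in wild type and 3 in Ezh2-deficient cells. Irf4 went the other way without being called. It read 10.89 and 11.32 (log2) in wild type immature and 11.07 and 11.72 in wild type mature cells. In Ezh2-deficient cells it read 11.15 and 11.64 before and 11.78 and 12.21 after LPS. Neutrophil markers, none of 8 called, summed to 10419 and 26423 in wild type immature and 4613 and 9988 in wild type mature cells, and to 4468 and 20176 before and 2421 and 5685 after LPS in Ezh2-deficient cells. Of 5 T and NK cell markers 3 fell in each genotype. In immature cells, 1 of the 5 was called higher in Ezh2-deficient than in wild type cells, and 3 of the 5 differences were positive. The summed level of that list was 2859 and 4263 in Ezh2-deficient immature cells, against 948 and 1246 in wild type immature cells. The part of these markers in the changes of Tlr8, Tlr1, Tlr6 and Cd14 was not tested. In bulk RNA, fewer cells of a type and less RNA per cell cannot be told apart.

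Among 45 other genes of the pathway, 36 were tested. Of 3 other receptors of the family tested, 1 fell in wild type and 2 in Ezh2-deficient cells. Tlr5, the flagellin receptor, read 6.78 and 6.69 (log2) in wild type immature and 5.34 and 4.63 in wild type mature cells. It fell by 1.75 in wild type (SE 0.34, limma adjusted p = 0.00701) and at least 2.15-fold in Ezh2-deficient cells (adjusted p = 0.00998). Cd180, a receptor relative that modulates LPS signals, fell in Ezh2-deficient cells (-1.53, adjusted p = 0.0384) and was at -0.89 (adjusted p = 0.198) in wild type. Tlr11 did not pass.

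Ly96, which encodes MD-2, rose beside Cd14. It read 9.66 and 9.51 (log2) in wild type immature and 10.83 and 10.94 in wild type mature cells, and 9.64 and 9.52 before and 11.15 and 11.45 after LPS in Ezh2-deficient cells. The rise was 1.30 (SE 0.16, limma adjusted p = 0.00113) and 1.72 (SE 0.16, adjusted p = 0.000297). Ly86, which encodes MD-1, the partner of Cd180, fell in Ezh2-deficient cells (-1.29, adjusted p = 0.00455) and was at -0.68 (adjusted p = 0.0645) in wild type. None of the 6 chaperones and traffic genes tested was called in either genotype. Of 4 receptor-processing proteases, Lgmn, asparagine endopeptidase, rose in both (0.93 and 1.12, adjusted p = 0.00502 and 0.00179).

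Of 5 adaptors, 2 rose in both genotypes: Ticam1, which encodes TRIF (1.24 and 1.41, log2, limma adjusted p = 0.0037 and 0.00171), and Pik3ap1, a link to phosphoinositide kinases (1.75 and 1.81, adjusted p = 0.000437 and 0.000266). Among 11 receptor-proximal kinases, their partners and ubiquitin ligases 4 rose in each genotype, and 1 fell in wild type and 2 in Ezh2-deficient cells. Traf6, the ligase downstream of MyD88, rose by 1.35 and 1.62, Ikbke, an interferon-inducing kinase, by 1.53 and 1.59, and Peli1 by 1.14 and 1.10, while the receptor-proximal kinase Irak1 fell (-0.80 and -0.98). Of 5 inhibitors, Tnfaip3 (2.10 and 2.18) and Irak3 (1.67 and 1.61), which blocks release of active IRAK kinases, rose in both. Cyld, a deubiquitinase, rose in wild type (0.50, adjusted p = 0.044) and was at 0.44 (adjusted p = 0.0573) in Ezh2-deficient cells. None of the 36 was called in any genotype comparison.

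**Figure D5:**
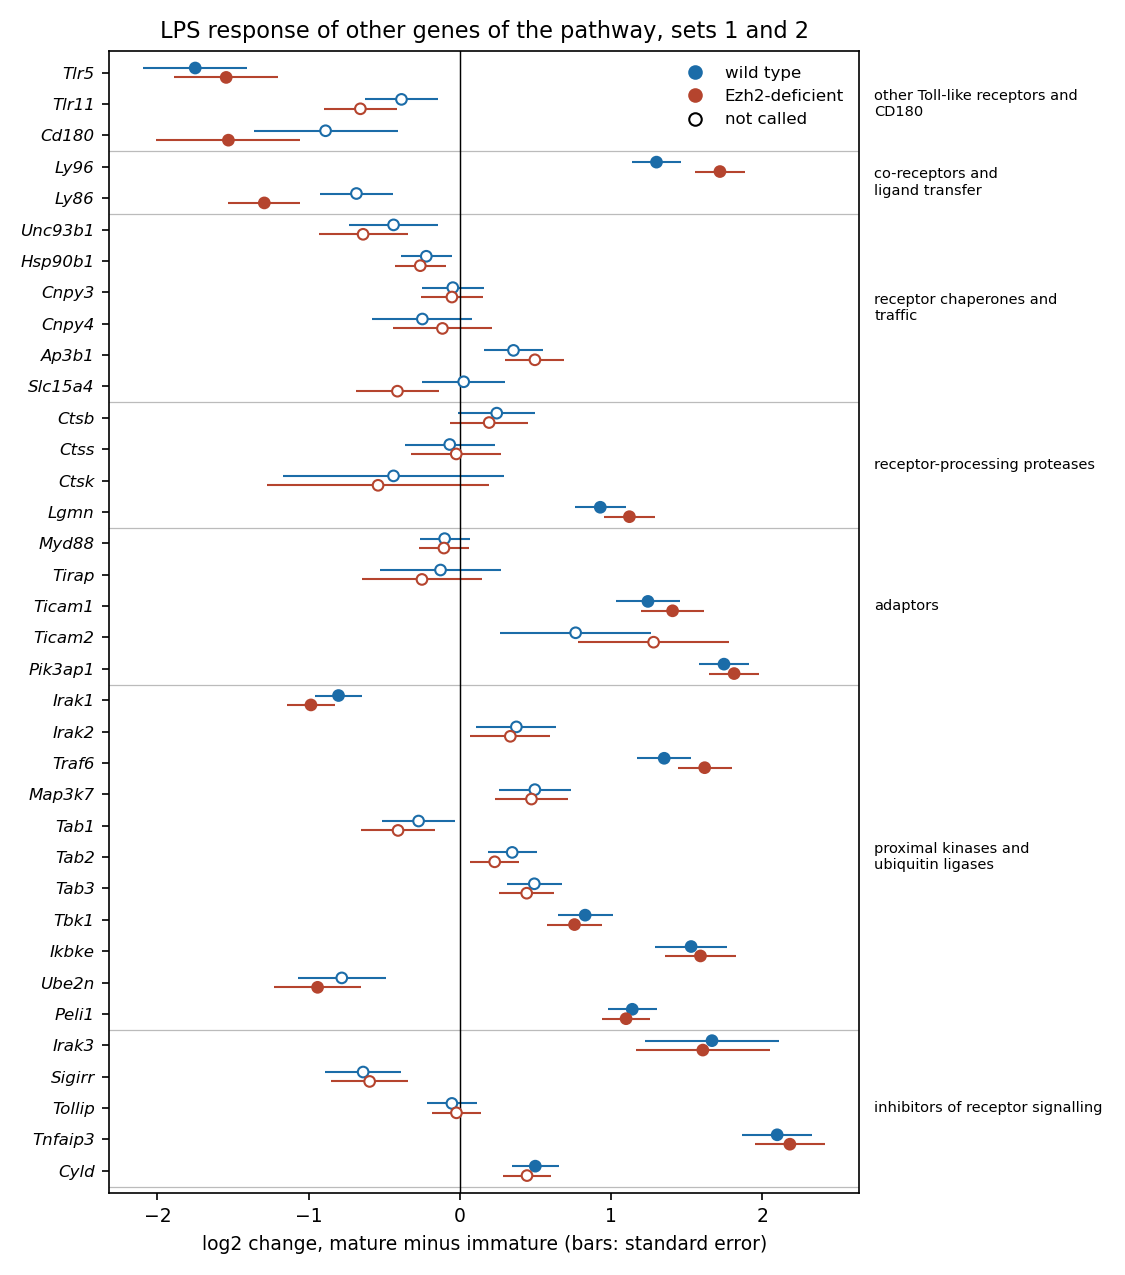
Change with LPS (x axis, log2, mature minus immature, bars are standard errors) of the 36 other pathway genes tested in wild type and Ezh2-deficient cells of sets 1 and 2, grouped by role; filled points were called at an adjusted p under 0.05. Ly96, Lgmn, Ticam1, Pik3ap1, Traf6, Tbk1, Ikbke, Peli1, Irak3 and Tnfaip3 rose in both genotypes, and Tlr5 and Irak1 fell in both.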

How the data were processed

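Each of the 12 Illumina bead arrays came as a table of 45281 probes with a mean bead intensity on a linear scale, per the file headers. The deposited detection p-value of each probe sits beside it. The deposited log2 table matched quantile-normalized intensities with no background correction (largest difference 0.000679). BeadStudio, limma and R 2.15.2 appear in the list of tools, per the submitters' processing notes, with no steps given.

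Intensities of all 12 arrays went through neqc (offset 16) in limma 3.58.1 under R 4.3.3. Symbols were updated from the platform annotation through RefSeq. A gene's value was that of its brightest detected probe, by the mean over all 12 arrays. Means of the 4 groups in sets 1 and 2 were fitted by limma with a trended prior, and tests were two-sided. Where a group was not detected, a fold is a bound from the lowest detected value per array. The fit was tested on simulated data.

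Members, lists and tests were chosen with earlier results of these data known. The text names the members, up to 4 called genes of each pathway list, the 3 genes nearest to each called member, and the label checks. Marker genes were named after their values were seen. Alternatives were all 12 arrays, a replicate block, the deposited log2 values, 75th percentile scaling, other filters, the mean of probes, and leaving out each array.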

Additional observations from a re-analysis of the deposited data

Results flagged for a closer look

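Arrays of set 3 entered none of the comparisons above. On them, 4 values of the 9 genes were detected more than 1 (log2) above every wild type array of sets 1 and 2 with the same labelled stage. On the array labelled wild type immature 3, Tlr1 was at 9.287 against 6.002 and 6.247, Tlr6 at 9.823 against 8.528 and 8.657, and Cd14 at 14.22 against 11.22 and 12.53. On the array labelled wild type mature 3, Tlr8 was at 8.002 against 4.785 and 5.362. Groups of 2 or 3 arrays were too small to look for a single outlying array, and no member's LPS response differed between the genotypes by the test of that difference.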

How the results depend on the processing

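Of 90 counts of called members under another setting, 85 were the reported count or within 1.5 times of it. The exceptions all concern LPS. With all 12 arrays as labelled 0 members were called in wild type and 0 in Ezh2-deficient cells, where 4 were reported for each. Leaving out 1 array at a time, which leaves that group with 1 array assumed to vary like the others, gave 2 to 3 called members in wild type and 2 to 5 in Ezh2-deficient cells. Tlr1 and Cd14 kept both calls in each of these 8 fits, with changes of 2.85 to 3.70 and 1.54 to 2.85 in wild type. With the replicate number as a replicate block, limma called 5 members in wild type and 6 in Ezh2-deficient cells, Tlr2 in both (adjusted p = 0.0302 and 0.0126) and Tlr13 in the second (adjusted p = 0.00532) in addition. The block also raised the calls over all genes, to 4489 and 4988 of 10908. Deviations from the group means correlated between same-numbered arrays of sets 1 and 2 at r = 0.218 to 0.717, but with 2 numbers this does not establish a pairing. The block moved the number of all genes called for Ezh2 deficiency from 3 to 16, 2 to 13 and 6 to 59 in immature cells, mature cells and both stages. Tlr8 in wild type also lost its call with 75th percentile scaling (-1.67, adjusted p = 0.0656) and when dim probes were kept (adjusted p = 0.0635), and Tlr6 in Ezh2-deficient cells with the mean of its probes (1.01, adjusted p = 0.0573). The causes were not tested. With 75th percentile scaling the median LPS change of all genes was 0.11 in wild type and 0.13 in Ezh2-deficient cells in place of -0.03, and 52.1% and 53.7% of the called genes were higher, against 41.6% and 42.3%. None of 536 genotype values of the members under another setting was called. Of all genes, LPS called 3307 in wild type and 3926 in Ezh2-deficient cells, and 0 in either with 12 arrays. Without wild type immature 1 or 2 the first count was 2018 or 1784, and without Ezh2-deficient immature 1 or 2 the second was 2374 or 2411. The genotype counts of 3, 2 and 6 fell to as few as 0, 0 and 2 when 1 array was left out, and to 0 with 12 arrays. Dim signal limits Tlr3, Tlr9, the mature level of Tlr8 and the Ezh2-deficient immature level of Tlr1.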

Other observations

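Sets 1 and 2 differed in several receptors within every group. The level in set 1 was above that in set 2 in 4 of 4 groups for Tlr4 (by 0.49 to 0.90, log2), Tlr7 (0.52 to 0.96), Tlr8 (0.20 to 1.86), Tlr13 (0.21 to 0.82) and Tlr6 (0.13 to 0.82), and below it in 4 of 4 for Tlr9 (-0.60 to -0.04), whose probe was mostly not detected. The median over all genes lay between -0.03 and 0.01 in the 4 groups, where quantile normalization within neqc keeps it near 0. How many of all genes kept the same sign in all 4 groups was not counted. The signs are thus not a result about the receptors. The summed level of the neutrophil markers differed the same way, at 26423, 9988, 20176 and 5685 in set 1 and 10419, 4613, 4468 and 2421 in set 2 (wild type immature and mature, then Ezh2-deficient immature and mature). Monocyte markers also summed to a higher level in set 1 in 4 of 4 groups, at 3689, 498, 5427 and 786 against 966, 262, 2060 and 401. Type 1 dendritic cell markers were lower in set 1 in 4 of 4, at 5666, 9485, 6579 and 12227 against 8038, 14376, 8532 and 19267. The part of these markers in the differences was not tested.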
